A study of Caenorhabditis elegans with 3 samples.

Results

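Cytoplasmic poly-A binding proteins of Caenorhabditis elegans are encoded by pab-1 and pab-2, and these 2 genes, of 19194 in the deposited table, are described here across development. They account for 232 and 15 of its 207067 isoform rows. They were taken by gene symbol. The pair was chosen by its estimated reads per stage and its number of isoform rows in these same libraries, so those values are given as a description and no test is attached to them. Polyadenylated RNA of strain N2 was read as native strands by nanopore direct RNA sequencing in 3 libraries, 1 each from mixed-stage embryos, L1 larvae (the stage that hatches from the egg) and young adults. The larval and adult libraries came from whole worms, no treatment or allele is named, and no library has a replicate. Below, embryos, L1 larvae and young adults stand for these single libraries. In such samples fewer cells of a type and less RNA per cell cannot be told apart.

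Poly-A binding proteins coat the tail at the end of a messenger RNA through RNA recognition motifs. Bound to the tail, they contact the cap-binding complex through the scaffold eIF4G, which favours translation, and they influence how fast deadenylases remove the tail. In C. elegans pab-1 is needed for a normal germline, and pab-2 is its less studied paralog.

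Estimated reads totalled 941707 for embryos, 1017061 for L1 larvae and 1611049 for young adults. A gene listed at 0 could still hold up to 3 reads, or 3.19, 2.95 and 1.86 RPM (estimated reads scaled to a library of 1000000 reads) in the same order. Intervals in parentheses are exact binomial (Clopper-Pearson) ones at 95%. They take the rounded estimates as counts and reflect read counting alone. A difference beyond them at most separates single libraries and says nothing of the spread between animals. Of 13 stage markers, the 5 embryo markers summed to 3947 RPM in embryos, 139 in L1 larvae and 392 in young adults. Single genes carried most of these sums, with dpy-14 at 2761 RPM in embryos and pos-1 at 386 RPM in young adults. The pos-1 share in young adults was 0.535 times that of embryos (0.479 to 0.598), so it separates these libraries weakly. The 3 L1 markers summed to 45.7, 2227 and 99.9 RPM, and the 5 adult markers to 272, 671 and 5482. Adult yolk genes vit-2 and vit-6 were at 0 reads in embryos and had 270 and 197 reads in L1 larvae. Their part in the values below was not tested.

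In Ensembl release 115 (WBcel235), pab-1 (Y106G6H.2, WBGene00003902) lies on the minus strand of chromosome I, from 10432856 to 10435876. Its 3 transcripts have 6 to 8 exons and 2131 to 2339 nt, and all 3 encode the same length of 646 amino acids. They differ in the 5′ UTR, of 7, 210 or 100 nt, while the 3′ UTR has 183 or 188 nt. The ribosomal protein gene rpl-30 starts 378 nt away on the opposite strand. The gene pab-2 (F18H3.3, WBGene00003903) lies on the minus strand of chromosome X, from 13522262 to 13527415. Its 4 transcripts have 4 to 6 exons and 2681 to 3999 nt, with 692 amino acids for the 3 transcripts of form a and 575 for form b. The 3′ UTR of pab-2, at 931 or 943 nt, is several times longer than that of pab-1. A non-coding gene, F18H3.6, lies within the pab-2 interval on the other strand.

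By library totals the level of pab-1 was high and of similar size in all 3 libraries. With TMM factors, described below, its L1 level was instead 1.85 times that of embryos, and its direction between embryos and young adults turned. The level of pab-2 was highest in embryos and low in the later libraries. The gene pab-1 had 1809 estimated reads in embryos, 1971 in L1 larvae and 2594 in young adults. As read levels these were 1921 RPM (1834 to 2012), 1938 (1853 to 2025) and 1610 (1549 to 1673). The embryo and L1 intervals overlapped, and the young adult interval lay below both. By reads, pab-1 ranked 56 of 12013 genes in embryos, 92 of 13188 in L1 larvae and 118 of 12614 in young adults.

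The second gene, pab-2, had 143 reads in embryos, 17 in L1 larvae and 7 in young adults. Its levels were 152 RPM (128 to 179), 16.5 (9.74 to 26.8) and 4.48 (1.75 to 8.95). These 3 intervals do not overlap. It stood above 88.8% of the genes with reads in embryos, 57.6% in L1 larvae and 31.7% in young adults.

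**Figure D1:**
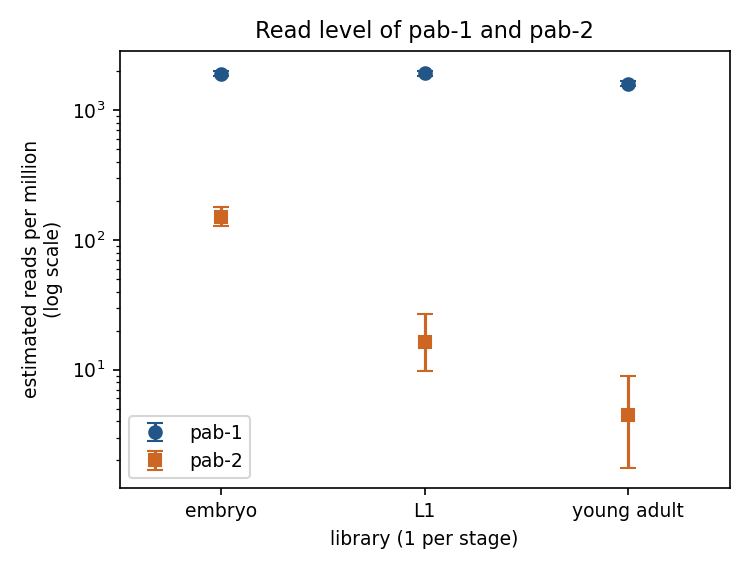
Level in RPM (log scale) of pab-1 (circles) and pab-2 (squares) in the embryo, L1 and young adult libraries, 1 library per stage, with 95% binomial intervals. The pab-1 points stay between 1610 and 1938 RPM (young adults are lower than embryos here but higher with TMM factors), while pab-2 goes from 152 to 4.48.

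Ratios of read shares show the same contrast, with a gene called higher or lower where the interval bound nearest to 1 is at least 2-fold away. The pab-1 share in L1 larvae was 1.01 times that of the embryo library (0.946 to 1.08). From L1 to young adult it was 0.831 times as large (0.783 to 0.881), and from embryo to young adult 0.838 times (0.789 to 0.890). The pab-2 share was 9.09-fold lower in L1 larvae than in embryos (5.48 to 16) and 35.0-fold lower in young adults (16.5 to 88.5). Since read shares chose these genes, the 2-fold rule is not applied to them as support, and the shares of all genes called are given for scale. Among all genes with at least 20 reads, 33.1% of 8382 were called lower in the L1 and 29.3% of 8636 in young adults. Between L1 and young adult, pab-2 was 3.85-fold lower (1.52 to 11) on 17 and 7 reads, and 14.2% of 8043 genes were called lower in that pair. In the other direction 13.4%, 14.5% and 13.2% of genes were called higher in the L1 over embryo, young adult over L1 and young adult over embryo pairs. Comparisons against the embryo share that library and are not independent.

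The direction for pab-1 depends on the reference chosen, and the typical gene took a smaller share in the later libraries than in embryos. The median log2 ratio of all genes compared was -1.14 in L1 over embryo and -0.71 in young adult over embryo, against 0.01 and -0.25 for pab-1. With TMM factors, which centre the libraries on the bulk of genes, the medians became -0.27 and 0.09. The pab-1 ratio then became 1.85 (1.73 to 1.97) in L1 over embryo and 1.46 (1.37 to 1.55) in young adult over embryo, so the direction of the second turned. In young adult over L1 it stayed below 1, at 0.790. With the same factors pab-2 remained lower, by 4.96-fold (2.99 to 8.75) in L1 larvae and 20.1-fold (9.50 to 50.9) in young adults against the embryo.

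Set against each other, pab-1 had 12.7 times the reads of pab-2 in embryos, 116 times in L1 larvae and 371 times in young adults. Per kb of the longest Ensembl transcript the factors were 21.6, 201 and 615. Each read is of a native strand, so counts need not grow with transcript length, and the values per kb are given for reference only. As levels per kb, in RPM, pab-1 stood at 821, 828 and 688 and pab-2 at 38.0, 4.12 and 1.12. The share of pab-2 in the reads of both genes was 7.33% in embryos (6.21 to 8.57), 0.855% in L1 larvae (0.499 to 1.37) and 0.269% in young adults (0.108 to 0.554). This share does not depend on how the libraries are scaled. How reads that fit both paralogs were assigned is not given in the labels.

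Genes with the most similar pattern were sought by the distance between log2 read shares, centred over the 3 libraries. For pab-1, among 1060 genes with at least 500 reads, the nearest was the seryl-tRNA synthetase gene sars-1, at a distance of 0.08, with levels of 354, 360 and 278 RPM. Next came the peroxiredoxin gene prdx-2 (0.11), the collagen gene col-125 (0.11), and the respiratory chain genes isp-1 (0.12) and cox-5A (0.13). For pab-2, among 7224 genes with at least 50 reads, the nearest were hlh-3 (0.06), a proneural bHLH factor gene, F59C12.4 (0.10) and cam-1 (0.12), a ROR-type receptor tyrosine kinase gene. They were followed by the bromodomain gene bet-2 (0.15) and the homeobox gene ceh-34 (0.15). This likeness rests on 3 points per gene, and hlh-3 had 3 young adult reads.

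Isoforms are listed as rows of the deposited table, each named either by an annotated transcript or by the identifier of a sequencing read. The gene pab-1 had 232 rows, 11 named by a transcript and 221 by a read. This was the sixth largest number among all genes, after rpl-4 with 314, rps-0 with 283, rla-0 with 270, rps-7 with 250 and ant-1.1 with 233. Those 5 genes had 16004 to 25867 reads over the 3 libraries, against 6374 for pab-1. Across the 10 genes nearest to pab-1 in reads, the number of rows ran from 39 for icd-1 to 166 for ahcy-1, with a median of 66. The same 10 genes had 1 to 5 exons and longest transcripts of 306 to 1536 nt, below the 8 exons and 2339 nt of pab-1, and the part of length in the row count was not tested. Among 13 genes with at least 2000 reads and a transcript of at least 2000 nt, pab-1 came first, followed by the elongation factor gene eef-2 with 120 rows and the polyubiquitin gene ubq-1 with 86. Those limits on reads and length were set after the values had been seen.

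**Figure D2:**
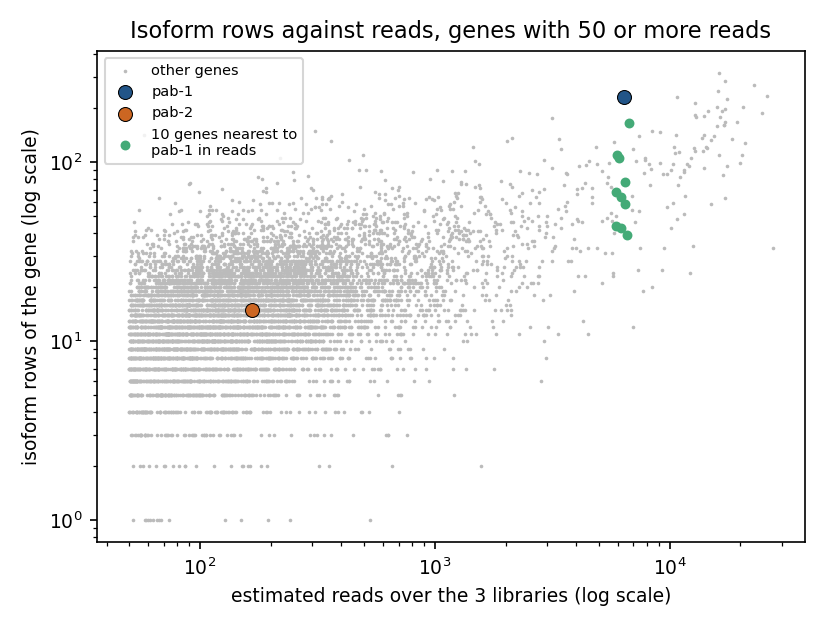
Number of isoform rows against estimated reads over the 3 libraries (both log scales) for genes with at least 50 reads, with pab-1, pab-2 and the 10 genes nearest to pab-1 in reads marked. At 6374 reads pab-1 has 232 rows, above the 39 to 166 of those 10 genes, while pab-2 has 15 rows at 167 reads.

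The value of a row in each library looks apportioned rather than counted. In all 232 pab-1 rows the split over the 3 libraries was a ratio of whole numbers (within 0.0001, totals up to 5000 tried), as in all 14 pab-2 rows above 0. Row R1, the largest of pab-1, was estimated at 1073 reads and split as 353, 749 and 1429 of 2531. The smallest such totals summed to 84002 over the pab-1 rows, against 6374 estimated reads. The labels do not describe how the library values were made. The gene levels above are sums of these row values. The row values below are not treated as independent read counts. Intervals of gene levels, ratios and rows all take the estimates as counts and do not cover the apportioning. The part of the apportioning in gene and row differences was not tested.

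Most pab-1 rows were small. Their median was 5.04 reads over the 3 libraries, 185 rows reached 2 reads, 74 reached 10 and 11 reached 100. Rows with at least 2 reads numbered 106 in embryos, 97 in L1 larvae and 101 in young adults. At a common depth of 1692 whole reads, with the row values taken as counts, the expected numbers were 106, 92.7 and 84.9. Values above 0 in all 3 libraries were listed for 227 of the 232 rows, but such values can be fractions of a read, and 55 rows had at least 5 reads in all 3. Whether a row was present in each stage cannot be read from these values.

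Reads of pab-1 were spread most widely in embryos and were most concentrated in young adults. The fewest rows that held 50% of the gene's reads numbered 9 in embryos, 5 in L1 larvae and 3 in young adults. For 90% the numbers were 81, 67 and 57. The effective number of rows (inverse Simpson index) went from 25.6 in embryos to 14.9 in L1 larvae and 9.02 in young adults. The top 10 rows of each library held 53.8%, 60.9% and 65.9% of its pab-1 reads.

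**Figure D3:**
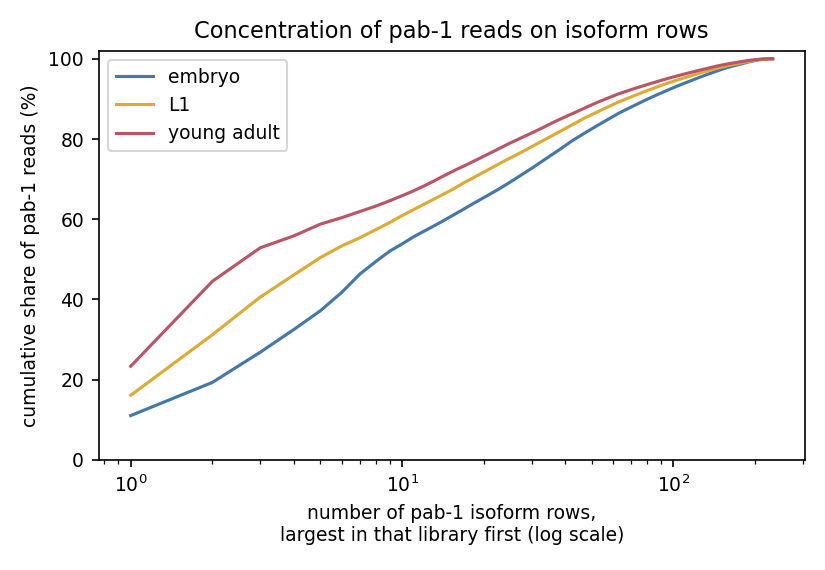
Cumulative share of pab-1 reads (%) against the number of isoform rows, counted from the largest row of each library (log scale). The young adult curve lies highest and the embryo curve lowest, reaching 50% at 3 and 9 rows.

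Rows named by an annotated transcript held few pab-1 reads. Whether read-named rows match annotated structures was not tested. The 11 rows named by a transcript held 4.43% of pab-1 reads in embryos (3.52 to 5.47), 2.51% in L1 larvae (1.89 to 3.33) and 3.24% in young adults (2.59 to 3.99). Over the 3 libraries together the annotated share was 3.35%, against a median of 17.2% over 1056 genes with at least 500 reads, of which 21.9% had a lower share. The largest annotated row, Y106G6H.2a.1, had 46.6, 25.9 and 39.5 reads in the embryo, L1 and young adult libraries. Next were Y106G6H.2a.3 with 13.3, 9.36 and 30.3 reads, Y106G6H.2a.5 with 12.0, 11.5 and 9.76, and Y106G6H.2a.4 with 6.13, 1.90 and 3.11. The other 7 annotated rows carried the same value, 0.637 reads each over the 3 libraries. None of the 11 names is among the 3 transcript names of Ensembl release 115, so their exon structure is not described here.

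The largest read-named rows of pab-1, called R1, R2 and so on by reads over the 3 libraries, changed order between embryo and later libraries. Row R1 had 150 reads in embryos, 318 in L1 larvae and 606 in young adults. That is 8.27% of pab-1 reads in embryos (7.06 to 9.66), 16.1% in L1 larvae (14.5 to 17.8) and 23.4% in young adults (21.7 to 25). Its share was larger in each later stage, and the 3 intervals do not overlap.

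Row R2 behaved alike, with 136, 298 and 549 reads, or 7.51%, 15.1% and 21.2% of the gene's reads. Both rows had a share 2.82 times as large in young adults as in embryos, with intervals of 2.35 to 3.39 and 2.33 to 3.42. Whether R1 and R2 drew on the same reads was not tested, so R2 is not counted as a second observation. Together R1 and R2 held 15.8% of pab-1 reads in embryos, 31.2% in L1 larvae and 44.5% in young adults. As a level this was 303, 605 and 717 RPM, while the level of the whole gene by library totals was lowest in young adults (with TMM factors, in embryos).

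Row R4 went the other way, with 200 reads in embryos, 84.5 in L1 larvae and 77.7 in young adults. It was the leading row of the embryo library with 11.1% of pab-1 reads (9.65 to 12.6), and held 4.29% (3.46 to 5.31) and 3.0% (2.38 to 3.74) in the later stages. The embryo interval lay above the later ones, which overlap each other. From embryo to young adult its share was 3.69-fold lower (2.82 to 4.84). Rows R6 and R7 followed a like course, at 3.42-fold (2.27 to 5.20) and 3.44-fold (2.29 to 5.26) lower.

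Of the 11 rows with at least 100 reads, 5 had their largest share in embryos (R4, R6, R7, R10 and Y106G6H.2a.1), 4 in L1 larvae (R3, R5, R8 and R9) and 2 in young adults. Some of these maxima lie within counting error. Row R9 held 1.80% in embryos (1.26 to 2.55), 2.04% in L1 larvae (1.45 to 2.75) and 1.61% in young adults (1.17 to 2.18), and these intervals overlap. For R5, with 4.62% (3.72 to 5.72), 5.58% (4.61 to 6.69) and 2.91% (2.28 to 3.61), the embryo and L1 intervals overlap and the young adult interval lies below both.

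**Figure D4:**
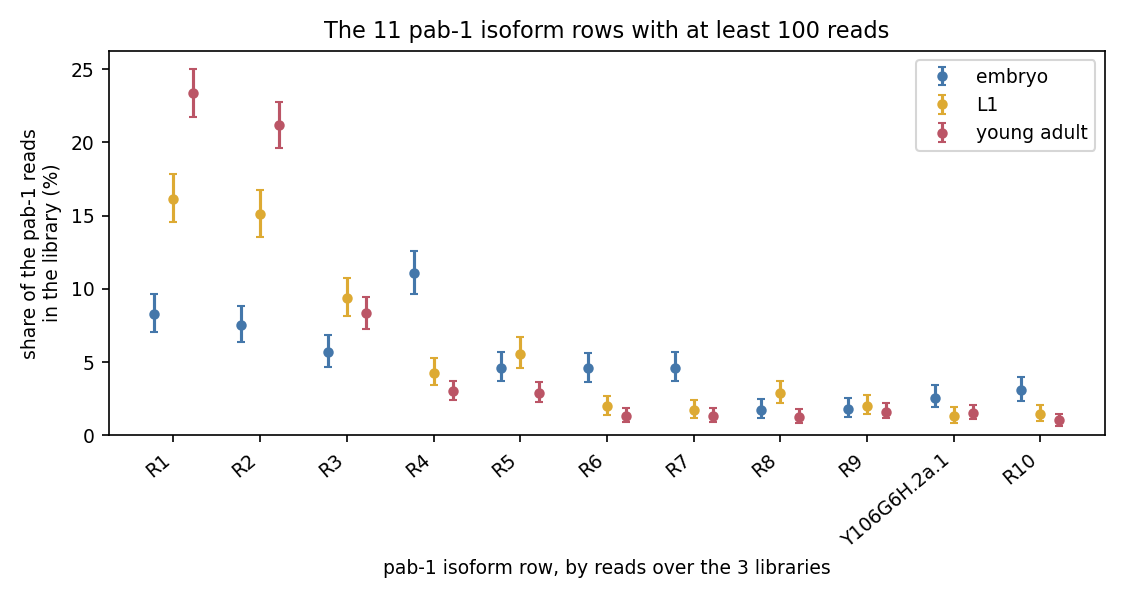
Share of the pab-1 reads of a library (%) held by each of the 11 rows with at least 100 reads, with 95% binomial intervals, for the embryo, L1 and young adult libraries. Rows R1 and R2 are lowest in embryos and highest in young adults, and R4, R6, R7 and R10 are highest in embryos.

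Row shares were among the values that chose pab-1 and the rule for rows was set after they were seen, so the counts that follow are a description from which nothing is read. By the 2-fold rule applied to row shares, 2 of 37 pab-1 rows with at least 20 reads were higher (R1 and R2) and 3 lower (R4, R6 and R7) in young adults than in embryos. Over all 7284 rows of genes with at least 100 reads in both libraries, 0.371% were higher and 2.09% lower. In L1 over embryo 0 of 34 pab-1 rows were higher and 0 lower, against 0.0965% and 0.154% of 5184 rows. In young adult over L1 the counts were 0 and 0 of 37, against 0.587% and 3.52% of 6477 rows. The share of pab-1 reads that would have to move between rows to turn one library into the other was 22.8% for embryo and L1, 15.3% for L1 and young adult, and 32.2% for embryo and young adult. The medians over genes were 6.17%, 11.3% and 11.5%. Counting error in many small rows adds to this measure, and pab-1 had 232 rows against a median of 28 over 1056 genes with at least 500 reads. The part of row number in it was not tested. The row with most reads differed between embryo and L1 and between embryo and young adult for pab-1, as it did for 9.34% of 707 and 10.6% of 1260 genes. Between L1 and young adult R1 led in both libraries, and 13.4% of 878 genes had a different leading row.

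The pab-2 gene had 15 rows, 5 named by a transcript and 10 by a read, which is within the 5 to 27 rows of the 10 genes nearest to it in reads. Its annotated rows held 9.21% of its reads in embryos (4.93 to 15.0), 9.39% in L1 larvae (1.46 to 36.4) and 5.62% in young adults (0 to 41.0). The row F18H3.3a.1, whose annotated transcript has a 5′ UTR of 4 nt, had 8.37 embryo reads, and F18H3.3a.2, a.3, a.4 and b.1 had the same 1.20 each. Read-named rows R1, R2, R3 and R4 of pab-2 had 27.4, 25.6, 26.2 and 21.1 embryo reads, so no row led clearly. In the L1 library the same rows had 3.84, 3.82, 3.24 and 1.34 reads, and in young adults 1.64, 1.43, 1.39 and 0.803. Of the 4 rows with enough reads to compare with embryos, 0 passed the 2-fold rule in either later stage, so a change in pab-2 isoform use was not detectable at this depth. In embryos, pab-1 thinned to 139 whole reads has an expected 21.8 rows with at least 2 reads, and pab-2 had 9. The thinning takes the apportioned row values as counts and starts from rows listed at the full depth of pab-1. It therefore cannot show how many rows pab-1 would have been given at the depth of pab-2.

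Genes that make, remove and read the poly-A tail were often called lower in L1 larvae than in embryos by library totals, where 33.1% of all genes were. In young adult over embryo 29.3% of all genes were lower, and the counts of the tail addition and partner lists were near that share. Fewer list genes were called lower with TMM factors. For tail addition and cleavage, 0 were higher and 11 lower of 15 compared in L1 over embryo, and 0 and 6 of 16 in young adult over embryo. The list medians were -2.12 and -1.19 on the log2 scale, against -1.14 and -0.71 for all genes. The poly-A polymerase gene pap-1 had 188, 40 and 72 reads, 5.08-fold lower in L1 larvae (3.59 to 7.33) and 4.47-fold lower in young adults (3.39 to 5.95) than in the embryo. The gene pabp-2, for the nuclear poly-A binding protein, had 148, 30 and 56 reads and was 5.33-fold (3.58 to 8.18) and 4.52-fold (3.30 to 6.27) lower. Cleavage factor genes cpsf-1, cpsf-3 and cfim-2 were also lower in both pairs, with cfim-2 at 16.2-fold (6.01 to 61.4) and 6.04-fold (3.48 to 11). With TMM factors 13.5% and 17.3% of all genes were lower and 18.8% and 19.6% higher in these pairs. The counts of lower list genes then became 2 of 15, namely cfim-2 and cpf-2, and 0 of 16. The first of these counts is near the background and the second below it. By these factors pap-1, pabp-2, cpsf-1 and cpsf-3 were called in neither pair. The cleavage factor gene cfim-1 had 146, 42 and 159 reads. By library totals alone it was called lower in L1 larvae than in embryos, at 3.75-fold (2.65 to 5.43). Against L1, the young adult library had 1 higher gene of 15, cpsf-4 at 3.27-fold (2.17 to 5.09), where 14.5% of all genes were higher.

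Of the deadenylation and decay genes, 10 of 16 were lower and 0 higher in L1 over embryo. In young adult over embryo 11 of 17 were lower and 1 higher. Of all genes 33.1% and 29.3% were lower in these pairs. With TMM factors 2 of 16 and 5 of 17 were lower, against 13.5% and 17.3% of all genes. The first of these counts is near the background. The deadenylase gene ccf-1 had 207, 52 and 112 reads and was 4.3-fold (3.16 to 5.95) and 3.16-fold (2.5 to 4.02) lower, and let-711, the scaffold of the CCR4-NOT complex, 8.58-fold (5.24 to 14.9) and 3.31-fold (2.48 to 4.44). The CCR4-NOT subunit genes ntl-2 and ntl-4, the PAN3 homolog gene panl-3, the decapping genes dcap-1 and edc-4 and patr-1 were lower in both pairs too. For patr-1, with 288, 67 and 108 reads, the folds were 4.64 (3.55 to 6.15) and 4.56 (3.64 to 5.75). These folds and calls are by library totals. With TMM factors dcap-1 was called lower in both pairs and let-711 in L1 larvae alone. The genes ntl-2, ntl-4, edc-4 and patr-1 were then called lower in young adults alone, and ccf-1 and panl-3 in neither pair. An exception to the lower levels was cgh-1, a germline DEAD-box helicase gene, with 57, 58 and 581 reads. It was 5.96-fold higher in young adults than in embryos (4.53 to 7.96) and 6.32-fold higher than in L1 larvae (4.82 to 8.43). The decapping activator gene lsm-1 had 183, 40 and 206 reads and was higher in young adult over L1 at 3.25-fold (2.31 to 4.68). In that pair 2 of 16 genes were higher and 0 lower, against 14.5% and 14.2% of all genes, so the count of higher genes is near the background.

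Partners of poly-A binding proteins in translation and repression were lower for 7 of 12 and higher for 0 in L1 over embryo, and lower for 4 of 13 and higher for 1 in young adult over embryo. Of all genes 33.1% and 29.3% were lower in these pairs. With TMM factors 3 of 12 and 3 of 13 were lower, against 13.5% and 17.3% of all genes. In the second pair 2 of 13 were then higher, against 19.6%, so the counts in that pair are near the background. The GW182-type silencing gene ain-1 had 276, 23 and 12 reads, 13.0-fold (8.46 to 20.8) and 39.4-fold (22.2 to 77.1) lower, and its paralog ain-2 was 4.42-fold (3.29 to 6.03) and 4.72-fold (3.66 to 6.14) lower. Among eIF4E cap-binding genes, ife-2 and ife-4 were lower in both pairs, ife-4 at 14.3-fold (7.51 to 30.4) and 10.8-fold (6.75 to 18.0). With TMM factors ain-1 and ife-4 were called lower in both pairs, ife-2 in L1 larvae alone and ain-2 in young adults alone. In contrast ife-3 had 99, 57 and 505 reads and was 2.98-fold higher in young adults than in embryos (2.40 to 3.74). The eIF4G gene ifg-1, chosen after its values were seen, had 125, 32 and 104 reads. In young adult over L1, 3 of 13 genes were higher and 0 lower, namely ife-3, the release factor gene erfa-3 and ifet-1, the last not with TMM factors. Of all genes 14.5% were higher and 14.2% lower in that pair. The release factor gene erfa-1 had 137, 109 and 376 reads and passed the rule in young adult over embryo with TMM factors alone.

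Of the translation elongation factor genes, 0 were called lower in L1 larvae than in embryos. Among all genes 33.1% were, or 13.5% with TMM factors, and a list of 5 genes is too short to set against these shares. By library totals eef-1A.2 and eef-1B.2 had smaller shares in L1 larvae, at 0.531 (0.496 to 0.569) and 0.540 (0.435 to 0.668) times those of embryos. The shares of eef-1B.1, eef-1G and eef-2 were larger. Of 5 compared, 1 was higher and 0 lower in L1 over embryo, or 3 higher with TMM factors, against 13.4% of all genes higher, or 18.8% with TMM factors. The list median was 1.03 on the log2 scale, against -1.14 for all genes. In young adult over L1 0 were higher and 2 lower, and in young adult over embryo 0 and 1, or 2 and 1 with TMM factors. All genes were lower at 14.2% and 29.3% in those pairs. With TMM factors 19.6% of all genes were higher and 17.3% lower in young adult over embryo. The gene eef-2 had 2081, 6464 and 4092 reads, 2.88-fold higher in L1 larvae than in embryos (2.74 to 3.02). The gene eef-1B.1 had 1635, 3611 and 4083 reads and eef-1G had 1124, 2543 and 4075. By contrast eef-1A.2, with 2285, 1311 and 503 reads, was 7.77-fold lower in young adults than in embryos (7.05 to 8.58).

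**Figure D5:**
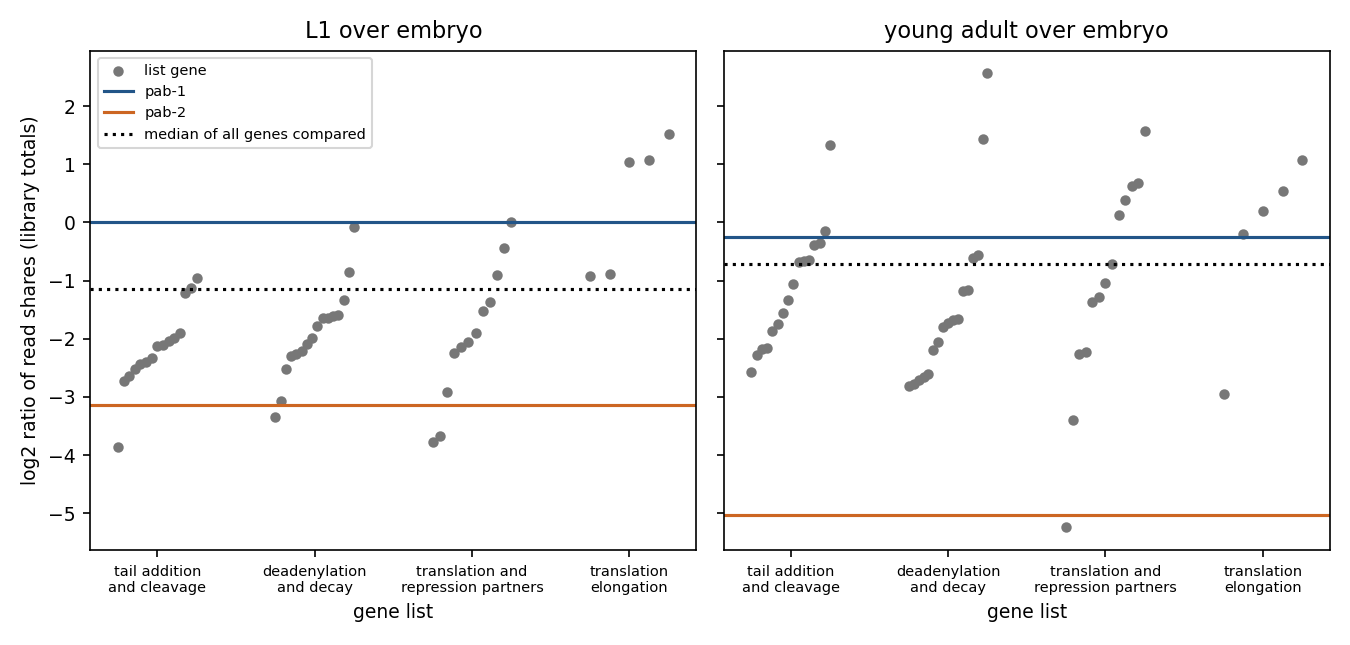
Log2 ratio of read shares (library totals) for the compared genes of 4 lists in L1 over embryo and young adult over embryo, with lines at pab-1, pab-2 and the median of all genes compared. In L1 over embryo pab-1 lies at 0.01 (0.89 with TMM factors, where the list genes shift alike), above every gene of the tail addition list, and pab-2 at -3.15 lies below all list genes but cfim-2, dcap-1, ife-4 and ain-1.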

How the data were processed

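The authors deposited estimated counts, per isoform row and per gene, for 3 libraries; they are not scaled for depth, and a placeholder of 1e-08 was taken as 0. A coverage signal headed Cpm, also deposited by the authors, is 1.33 times those reads in each library and served only to join symbols. Per the labels' protocols, base-calling used Albacore 2.0.1 under MinKNOW 2.1 with an R9.4.1 flow cell; the submitters' processing notes name minimap2 2.14. No source used here names the isoform caller, the filters or the genome build. Annotation came from Ensembl release 115.

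Estimated counts were summed per gene and rounded; row shares used unrounded values, and expected row numbers whole reads with fractions dropped. Each row's library proportions were compared with ratios of whole numbers, a check added after seeing the data. Ratios of read shares have exact conditional binomial 95% intervals and need 20 reads over both libraries; log2 ratios add 0.5 read. With 1 library per stage there is no test. Named genes are both members, every annotated row of them, the 5 largest pab-1 read rows (others with 100 reads were added later), per list the 3 genes with most reads and those called the same way in 2 pairs, the 5 nearest patterns and the 10 genes nearest in reads. Members and lists were chosen with earlier results of these data known, and the rule for row shares after seeing them. Listed genes xrn-1 and eef-1A.1 were not analysed here. Scaling with edgeR 4.0.16 (TMM) and DESeq2 1.42.0, other read minimums and annotated rows alone were tried. Python 3.11.15, numpy 2.4.6, pandas 2.3.3, scipy 1.17.1, matplotlib 3.10.9 and R 4.3.3 were used.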

Additional observations from a re-analysis of the deposited data

How the results depend on the processing

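No paired analysis was possible because each stage has 1 library and the labels give no replicate numbers; for the same reason no replicate could be left out. The pab-1 ratios of L1 over embryo, young adult over L1 and young adult over embryo (1.01, 0.831 and 0.838) were 1.31, 0.746 and 0.976 with library totals that left out the 50 genes with most reads, and 0.579, 1.06 and 0.614 from annotated rows alone. With TMM factors the first and last were 1.85 and 1.46, with DESeq2 size factors 1.91 and 1.5, and with TMM over genes with at least 20 reads the 3 ratios were 1.97, 0.730 and 1.44. The pab-2 ratio of L1 over embryo (0.110) was 0.202, 0.209 and 0.214 with TMM, DESeq2 and the second TMM setting. The pab-2 ratios of young adult over L1 and over embryo were 0 from annotated rows alone and 0 from rows with at least 2 reads, since the annotated young adult reads rounded to 0 and no young adult row reached 2 reads.

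Rows of pab-1 numbered 61, 56 and 61 from 5 reads in the embryo, L1 and young adult libraries, 149 and 153 from 1 read in the L1 and young adult libraries, and 228, 232 and 231 above the placeholder. Among annotated rows alone the leading row held 58.1%, 52.3% and 47.0% of reads. Genes called higher and lower with a minimum of 100 reads numbered 515 and 1393 in L1 over embryo (1120 and 2771 from 20 reads), 749 and 434 in young adult over L1 (1163 and 1142), and 569 and 1066 in young adult over embryo (1140 and 2533). With TMM factors 1132 and 1491 were lower in L1 and young adult over embryo, and with DESeq2 factors 1078 and 1447, with 1737 higher in the last pair; higher calls with TMM were 1574 and 1690. The cause of these changes was not tested. A minimum of 100 reads also leaves fewer genes to compare, so those counts are not shares. Depth limits pab-2, with 7 young adult reads.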

Other observations

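The 232 pab-1 rows had 222 distinct splits of their reads over the 3 libraries. The share of reads on the leading row over the 3 libraries together was 16.8% for pab-1, lower than in all but 2.94% of 1056 genes with at least 500 reads, and 19.7% for pab-2, lower than in all but 5.69% of 7193 genes with at least 50 reads. The average pab-1 row held 27.5 reads, against 40.2 to 168 in the 10 genes nearest in reads.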
